A study of Rattus norvegicus with 21 samples.

Results

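The microRNAs of untreated INS-1 832/13 cells, a rat insulinoma line that secretes insulin, were profiled by small RNA sequencing in 3 libraries. INS-1 832/13 is a subclone of the INS-1 line and carries a human insulin transgene. The cells received no metal (0 µM), and RNA was isolated at the end of the 24 h in which the study's other cells were exposed to inorganic arsenic, cadmium or manganese. Those other groups are not used here. Values are in RPMMM, reads mapped to microRNAs and scaled so that each library sums to 1000000. Levels below are levels of reads. Whether reads of different sequences count their molecules equally was not tested, and the SD between libraries does not show it. The rows described are those with a mean of at least 10 RPMMM over the 3 libraries, 517 of the 1186 rows of the table. They held 99.8% of the reads of each library. A row is 1 start position of 1 arm of 1 precursor hairpin, and 278 rows had the annotated start while 239 had a shifted one. They came from 202 precursors. Nothing in the labels says that the 3 libraries came from separate cultures, so every SD below measures the spread between libraries, which may be technical. The values of 1 group are described here, and no test was run.

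A microRNA is cut from a hairpin in which either arm, named 5p or 3p by its position, can give rise to the mature strand. The strand is loaded into an Argonaute protein and pairs with messenger RNAs mainly through its seed, bases 2 to 8 from its 5′ end. MicroRNAs with the same seed form a family with overlapping targets, and a start shifted by 1 base gives a different seed. In beta cells miR-375 and miR-7 are known as abundant regulators of insulin secretion and cell mass, and let-7 is known for its rise during differentiation and its role in glucose metabolism.

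Sequences were taken from RefSeq (rat, build GRCr8) by name, and all but 19 of the 242 mature names with an annotated-start row matched an entry. The leading microRNAs are shown first, grouped by seed, because a few seeds held most of the reads. Capitals mark the seed. The let-7 members share 1 seed and differ from each other at a few bases outside it:

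let-7f-5p: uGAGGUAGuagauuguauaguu
let-7i-5p: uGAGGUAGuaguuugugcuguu
let-7c-5p: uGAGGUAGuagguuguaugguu
let-7a-5p: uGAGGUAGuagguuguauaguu
let-7d-5p: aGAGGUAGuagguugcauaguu
let-7b-5p: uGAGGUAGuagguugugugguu
let-7g-5p: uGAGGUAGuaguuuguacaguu
miR-98-5p: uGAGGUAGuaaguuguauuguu

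The other leading sequences differ from each other in seed, apart from miR-7a-5p and miR-7b, and several share theirs with microRNAs not shown:

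miR-7a-5p: uGGAAGACuagugauuuuguugu
miR-7b: uGGAAGACuugugauuuuguugu
miR-375-3p: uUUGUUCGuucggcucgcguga
miR-182: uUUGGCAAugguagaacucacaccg
miR-26a-5p: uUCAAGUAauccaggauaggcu
miR-25-3p: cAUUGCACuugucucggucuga
miR-27b-3p: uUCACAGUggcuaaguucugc
miR-148a-3p: uCAGUGCAcuacagaacuuug
miR-200c-3p: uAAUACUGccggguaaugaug

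In GRCr8 the miR-7a-5p sequence lies at chr17:6278710-6278732 and chr1:142215818-142215840, both on the plus strand. The single locus of miR-375-3p is chr9:83906591-83906612 on the minus strand, and that of miR-182 is chr4:59752249-59752273, also on the minus strand.

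MiR-7a-5p was the most abundant microRNA, with 228467, 231605 and 209361 RPMMM in untreated libraries 1, 2 and 3. Its mean of 223145 ± 12039 RPMMM (SD, n = 3) was 22.3% of all microRNA reads. This value adds the rows of its 2 precursors, miR-7a-1 (113264 RPMMM) and miR-7a-2 (109880 RPMMM), which give the same 5p sequence. Low values show why such rows were added. Each library has a smallest step, the worth of 1 read (0.1582, 0.1332 and 0.1412 RPMMM). Among values under 6 RPMMM in rows without a second precursor, 85.8%, 80.6% and 78.7% lay within 0.0075 RPMMM of a whole number of reads, and 3.33%, 9.13% and 7.84% lay midway between 2 whole numbers. In rows of a mature form with 2 precursors, 44.4%, 29.2% and 27.1% lay midway. A whole number of reads was seen for 29.6%, 39.3% and 36.5% of these, and the rest lay at neither. With 3 or more precursors, 22.2%, 0% and 0% lay midway, among only 18, 21 and 28 values. Reads that matched 2 precursors thus appear divided between their rows. Of 33 microRNAs with several annotated-start rows, 24 had rows within 5% of each other. Others were unequal, as miR-92a-3p (7.97-fold) and miR-194-5p (2.74-fold) were. Had each row instead held all of the shared reads, keeping 1 row per mature form would put the miR-7 seed at 14.5% of the total.

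The second microRNA, let-7f-5p, had 74230 ± 1820 RPMMM (SD, n = 3), 7.42% of the total, after its 2 rows were added. MiR-375-3p, the islet-enriched microRNA that restrains insulin secretion, followed with 58128, 60296 and 63986 RPMMM, a mean of 60803 ± 2962. The miR-7a-5p values lay above those of let-7f-5p, and those above miR-375-3p, in every library. The next 5 overlapped between libraries. They were let-7i-5p (37677 ± 407 RPMMM), miR-30d-5p (36959.9 ± 1717), let-7c-5p (36181 ± 5011), let-7a-5p (35899 ± 3833) and miR-182 (35801 ± 1423). Their order is not larger than the spread between libraries.

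**Figure D1:**
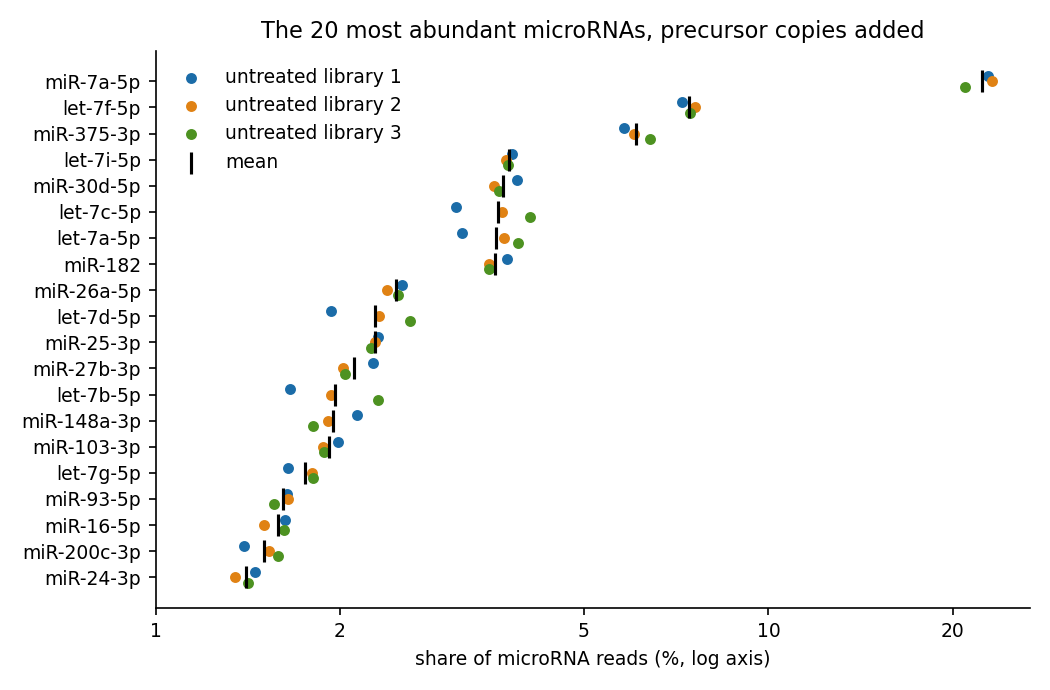
Share of microRNA reads (%, log axis) of the 20 most abundant microRNAs with rows of precursor copies added. Points are the 3 untreated libraries and bars are means. MiR-7a-5p stands alone at 22.3%, and let-7c-5p, let-7a-5p, let-7d-5p and let-7b-5p are spread more widely than their neighbours, with library 1 lowest and library 3 highest.

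The remaining 12 of the first 20 ran from miR-26a-5p (24659 ± 707 RPMMM), let-7d-5p (22819 ± 3372) and miR-25-3p (22776 ± 297) through miR-27b-3p, let-7b-5p, miR-148a-3p, miR-103-3p, let-7g-5p, miR-93-5p and miR-16-5p to miR-200c-3p (15039 ± 1007) and miR-24-3p (14053 ± 524). The repertoire was concentrated. With copies added, 7 microRNAs reached 50% of the reads, 19 reached 75%, 42 reached 90% and 79 reached 95%. The first 10 microRNAs held 58.8%, or 51.6% when the first 10 rows were taken without adding copies. By contrast 321 of the 517 rows lay between 10 and 100 RPMMM.

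The microRNAs with a sequence had 179 different seeds, and 24 of these seeds were shared by 2 or more microRNAs. The let-7 seed GAGGUAG, carried by 9 microRNAs, held 242782, 266095 and 278255 RPMMM, 26.2% of the total on average. The miR-7 seed GGAAGAC held 22.3%, of which miR-7b, at 10.1 ± 2.09 RPMMM, added almost nothing. The let-7 seed exceeded the miR-7 seed in all 3 libraries, by a small margin in library 1 (242782 against 228476 RPMMM) and a larger one in library 3 (278255 against 209370 RPMMM). Together with the seeds of miR-375 (6.08%), miR-182 (3.58%) and miR-26 (3.17%), these 5 seeds held 61.4%, and the first 10 held 72.4%. The 19 microRNAs without a sequence here, 4.83% of the reads, are in none of these seeds. Most of that share was miR-30d-5p (3.70%), so its place among the families is not shown. The seed shared by miR-30e-5p, miR-30a-5p, miR-384-5p and miR-30c-5p stood at 1.62%, while all rows named miR-30, both arms and all starts, held 5.22%.

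**Figure D2:**
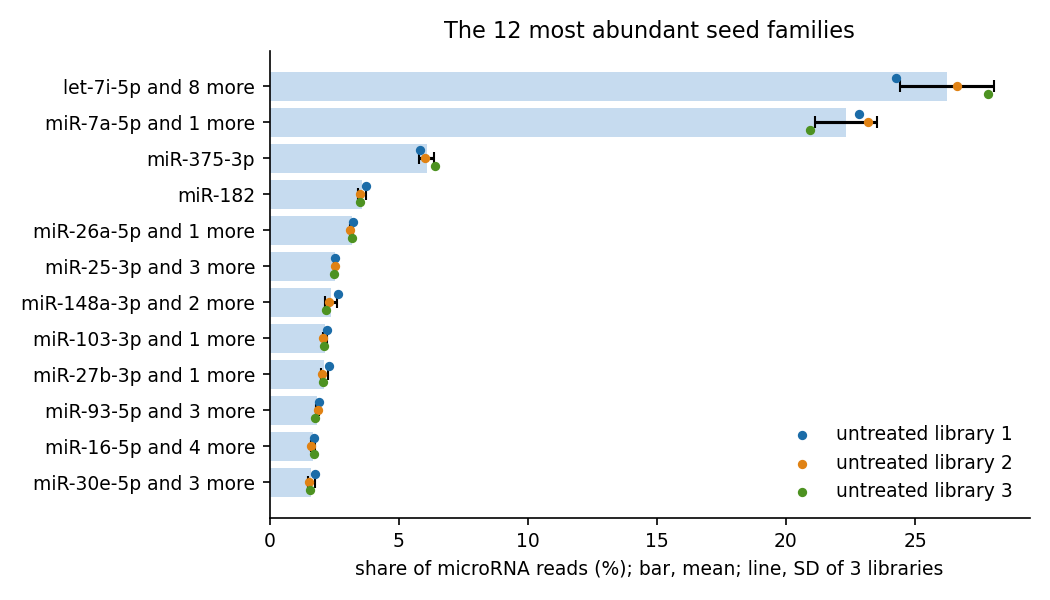
Share of microRNA reads (%) in the 12 most abundant seed families. Bars are means, lines the SD of 3 untreated libraries, and points the libraries. The let-7 seed (26.2%) and the miR-7 seed (22.3%) are far above the third, miR-375-3p at 6.08%. MiR-30d-5p (3.70%) has no sequence here and is in no bar.

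In 19 of the 24 shared seeds the highest member had at least 2 times the level of the second. In the miR-25/92 family miR-25-3p had 22776 RPMMM, against 1698 for miR-92b-3p, 476 for miR-92a-3p and 203 for miR-363-3p. In the miR-148/152 family, known to target the DNA methyltransferase Dnmt1, miR-148a-3p had 19511 RPMMM, miR-148b-3p 4199 and miR-152-3p 123.9. MiR-30d-5p, known as a glucose-responsive microRNA of beta cells, had 36959.9 RPMMM while miR-30e-5p, miR-30c-5p and miR-30a-5p had 4715, 4423 and 4196. MiR-30d-5p is in none of the counted seeds, and the miR-30 seed without it is not among the 19. The miR-181 family, also not among the 19, was led by miR-181d-5p (2692 RPMMM) and miR-181c-5p (2018 RPMMM), with miR-181a-5p at 14.4 and miR-181b-5p at 5.94 RPMMM. The let-7 family was spread more evenly, with 8 members from 13165 (miR-98-5p) to 74230 RPMMM (let-7f-5p) and let-7e-5p at 5246 ± 864.

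The label of the cells was compared with marker microRNAs. The beta cell markers were uneven. MiR-375-3p, miR-7a-5p, miR-182 and miR-183-5p (7061 ± 164 RPMMM) were high. MiR-204-5p, which lies in the Trpm3 gene and acts on Mafa, was lower at 447 ± 25.95 RPMMM, and miR-184, known to be repressed by glucose in islets, was at 40.04 ± 5.58 RPMMM. MiR-96-5p was at 40.01 ± 6.56 RPMMM although it shares a cluster with miR-182 (35801 RPMMM) and miR-183-5p. A wider list of 37 islet-related microRNAs, of which 32 were in the table and 28 had a row at 10 RPMMM or more, held 49.9% of the reads, with 22.3% in miR-7a-5p alone. Its members miR-200a-3p, miR-127-3p and miR-124-3p were at 1.80, 0.667 and 1.49 RPMMM, and miR-429 was listed at 0.

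Markers of other cell types differed widely in level between the lists. Several lists were only partly in the table, so their sums cover the listed microRNAs found there. These were 1 of 7 for blood, 2 of 3 for acinar cells, 3 of 8 for muscle and 4 of 8 for endothelium and stroma. Blood cell microRNAs summed to 2.75 to 4.12 RPMMM per library with no row at 10 or more. The acinar miR-216b-5p and miR-217-5p were at 8.33 and 6.07 RPMMM. Muscle microRNAs summed to 80.6 to 110 RPMMM, mostly miR-499-5p (69.9 ± 13.3). Endothelial and stromal microRNAs summed to 183.8 to 204.0 RPMMM, mostly miR-126a-5p (140 ± 11.8), and miR-143-3p was listed at 0. The neuronal list, with 13 of its 17 microRNAs in the table at 10 RPMMM or more, held 14438 ± 742 RPMMM, led by miR-129-5p (8119 ± 1043), miR-128-3p (2158 ± 60.1) and miR-9a-5p (1799 ± 173), while miR-124-3p, the neuron-defining member, was above 0 in library 2 alone and its other arm, miR-124-5p, had 13.9, 15.7 and 13.6 RPMMM. The tissue field of the labels reads liver. The hepatocyte-defining miR-122-5p was at 5.78 ± 0.952 RPMMM. Of the 6 microRNAs of the hepatocyte list in the table, 5 had a row at 10 RPMMM or more, with miR-192-5p at 9717 ± 985 RPMMM and miR-194-5p at 3432 ± 355. A microRNA is counted here through any of its rows. By rows, 16 of 29 hepatocyte, 29 of 96 neuronal and 118 of 251 islet rows reached 10 RPMMM, against 517 of 1186 in the table.

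Members of 1 cluster, which are transcribed together, differed in reads by up to several orders of magnitude. The 2 clusters of the miR-200 group, known for holding cells in an epithelial state, were far apart in the members found in the table. The miR-141/200c cluster summed to 20216 ± 713 RPMMM, while miR-200a-3p was at 1.80 ± 0.144 and miR-429 was listed at 0. Of the 3 members of that second cluster 2 were in the table, and miR-200b had no row. The miR-25/93/106b cluster, inside the Mcm7 gene, summed to 44176 ± 847 RPMMM against 323 ± 22.5 for its paralogue, the miR-17-92 cluster, of which 3 of 6 members were in the table. That sum holds 53.0 RPMMM of miR-92a-3p, while the row of the other miR-92a precursor, at 422.9 RPMMM, is not in it. MiR-19b-3p also entered through 1 of its 2 rows (17.4 RPMMM), but miR-17-5p through both of its rows (98.98 and 80.24 RPMMM). In the miR-23b/27b/24-1 cluster miR-27b-3p had 21095 RPMMM and miR-23b-3p 1270. MiR-132-3p (1634 ± 234) exceeded miR-212-3p (147 ± 17.5) of the same cluster. The imprinted Dlk1-Dio3 cluster, which is active in human islets, summed to 258 ± 3.86 RPMMM. Of its 61 listed microRNAs, 22 were in the table and 6 had a row at 10 RPMMM or more. By rows, 7 of 38 reached that limit, against 517 of 1186 in the table. The highest microRNA of the cluster was miR-541-5p at 51.2 ± 1.89.

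Rows named 5p held 71.6% of the reads, rows named 3p 24.4%, and rows whose name gives no arm, such as miR-182, 3.75%. Both arms reached 10 RPMMM in 83 precursors, with all starts added. The 5p arm was higher in 56 and the 3p arm in 27, and the same arm was higher in all 3 libraries in 80. The arms differed by a median of 11.5-fold, by at least 10-fold in 46 precursors and by at least 100-fold in 15. A further 61 precursors had the 5p arm alone at 10 RPMMM or more, and 47 the 3p arm alone.

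MiR-200c was the most one-sided, with 15476, 17111 and 17612 RPMMM for its 3p arm and 15.5, 13.4 and 15.4 for its 5p arm, a log2 ratio of 5p to 3p of -10.15 ± 0.18 (SD, n = 3). It was followed on the 3p side by miR-25 (-8.10 ± 0.41), miR-22 (-7.87 ± 0.09), miR-24-1 (-7.73 ± 0.05), miR-29a (-6.79 ± 0.23) and miR-128-1 (-6.75 ± 0.34). On the 5p side miR-192 led with a log2 ratio of 9.06 ± 0.30, followed by miR-7a-1 (8.89 ± 0.19), miR-93 (8.26 ± 0.05), miR-30d (8.21 ± 0.03), let-7c-2 (7.67 ± 0.33) and let-7a-1 (7.64 ± 0.28). MiR-7a-1, miR-24-1, miR-128-1, let-7c-2 and let-7a-1 share an arm with another precursor, so their ratios depend on how its reads were divided. With the rows of all copies added, the log2 ratio was 7.25 ± 0.16 for miR-7a, -7.13 ± 0.07 for miR-24, -7.66 ± 0.34 for miR-128, 8.67 ± 0.33 for let-7c and 8.64 ± 0.28 for let-7a. The 3p rows of let-7c-2 and let-7a-1 are identical. The most even were miR-1306 (0.15 ± 0.13), miR-106b (-0.29 ± 0.27), miR-125b-1 (0.29 ± 0.30), miR-34b (0.34 ± 0.61), miR-455 (-0.52 ± 0.33) and miR-29b-2 with miR-29b-3, whose rows are identical (0.52 ± 0.18). In miR-106b, miR-125b-1 and miR-34b the higher arm changed between libraries. MiR-125b-1 and the miR-29b precursors also share an arm with other copies. With copies added, miR-125b was at -0.34 ± 0.17, with the 3p arm higher in every library, and miR-29b at 0.93 ± 0.30. With annotated starts alone miR-1306 was less even, at 0.76 ± 0.13, and miR-29b-2 with miR-29b-3 (0.10 ± 0.11), miR-331 (-0.15 ± 0.42) and miR-106b (-0.16 ± 0.28) were the closest to 0. MiR-106b was the only abundant one of these, with 2092 ± 299 RPMMM for 5p and 2537 ± 130 for 3p. Its neighbours in the same cluster, miR-25 and miR-93, were strongly one-sided toward opposite arms.

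The hairpins of miR-200c and miR-1306 are shown as the most one-sided and, with all starts added, the most even precursor, with both mature arms in capitals and the 5p arm first:

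miR-200c hairpin: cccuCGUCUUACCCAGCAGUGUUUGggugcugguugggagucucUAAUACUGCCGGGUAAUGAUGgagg
miR-1306 hairpin: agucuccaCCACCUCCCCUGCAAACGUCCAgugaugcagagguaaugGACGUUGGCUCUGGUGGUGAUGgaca

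**Figure D3:**
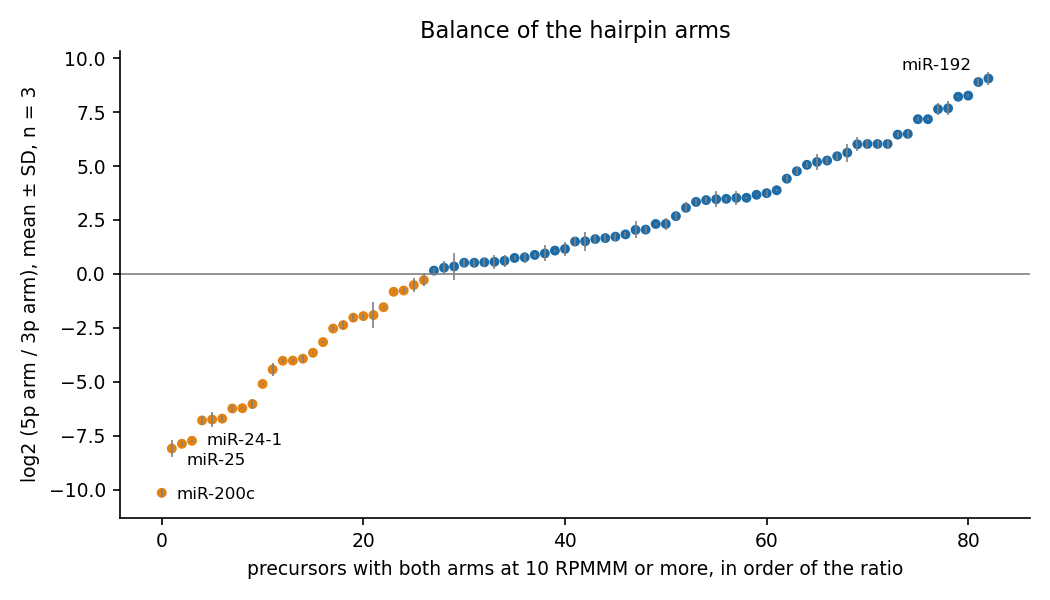
Log2 ratio of the 5p to the 3p arm in the 83 precursors with both arms at 10 RPMMM or more, in order of the ratio. Points are means and lines the SD of 3 untreated libraries. The ratios run from -10.15 (miR-200c) to 9.06 (miR-192), and lines are short against this range.

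The arms also tell precursor copies apart. The 5p sequence of the 2 miR-7a precursors is the same, so its rows cannot say which locus was used, but their 3p arms differ:

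miR-7a-1 hairpin: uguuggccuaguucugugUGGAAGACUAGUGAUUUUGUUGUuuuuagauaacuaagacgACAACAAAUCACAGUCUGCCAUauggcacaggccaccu
miR-7a-2 hairpin: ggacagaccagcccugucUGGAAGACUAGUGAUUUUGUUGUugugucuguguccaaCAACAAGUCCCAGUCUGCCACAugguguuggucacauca

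The 3p arm of miR-7a-2 had 1187, 1194 and 1346 RPMMM and that of miR-7a-1 had 275, 216 and 233, all starts added. The 3p rows of miR-7a-1 have shifted starts only. Whether the 2 loci were used to different degrees was not tested. The miR-7a-2 arm was higher in every library, by 5.21 ± 0.785-fold (SD, n = 3), while the 5p rows stood at a ratio of 0.977. Among microRNAs with 2 precursors whose less abundant arms differ and both reach 10 RPMMM, 3 others showed the same contrast between a shared arm near a ratio of 1 and an unequal second arm. The second-arm ratio was 3.17 ± 0.147 for miR-129-2 over miR-129-1, 2.04 ± 0.188 for miR-24-2 over miR-24-1 and 1.48 ± 0.103 for miR-30c-1 over miR-30c-2. The RefSeq 3p sequences of the miR-129 copies differ in their 3′ end only, so those reads are not fully told apart. These 4 were singled out after their values were seen.

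Shifted-start forms are rows in which reads begin before (minus) or after (plus) the annotated 5′ end, as the row names give it. The 239 such rows held 28855 ± 286 RPMMM, 2.89% of the total. A start 1 base later was the most common, with 87 rows and 1.52% of all reads, followed by 1 base earlier with 57 rows and 1.02%. Copies were added where their annotated sequences are the same. Of 262 microRNAs with an annotated-start row and at least 10 RPMMM over all forms, 115 had a shifted form of at least 10 RPMMM. Among the 147 at 100 RPMMM or more, the median share in shifted forms was 2.30%. It was at least 10% in 34, at least 50% in 8 and under 1% in 40. The share varied little between libraries, with a median SD of 0.174 percentage points. MiR-7a-1-3p (241 ± 30.4 RPMMM), miR-29b-1-5p (113 ± 20.7) and miR-466b-5p (15.3 ± 3.36) have rows with shifted starts only and are not among these.

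The table does not give 3′ ends, so the forms below are drawn to the annotated end. They are those in which a shifted start is a large part of an abundant microRNA, with the seed of each form in capitals:

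miR-183-5p: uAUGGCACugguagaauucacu
miR-183-5p, start +1: aUGGCACUgguagaauucacu
miR-140-3p: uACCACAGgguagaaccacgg
miR-140-3p, start +1: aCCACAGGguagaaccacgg
miR-101b-3p: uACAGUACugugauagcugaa
miR-101b-3p, start -1: gUACAGUAcugugauagcugaa
miR-101a-3p: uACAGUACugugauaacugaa
miR-101a-3p, start -1: gUACAGUAcugugauaacugaa

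MiR-183-5p had the most abundant shifted form, the start at +1, with 4273, 4225 and 4375 RPMMM. Shifted forms made 38.0%, 38.3% and 38.0% of its reads. MiR-182, of the same cluster, had 0.280% ± 0.00723. The +1 form of miR-140-3p, at 900 ± 72.2 RPMMM, was 2.05 times its annotated form, and the -1 form of miR-101a-3p, at 544 ± 119, was 1.75 times. The -1 form of miR-101b-3p (1144 ± 246) equalled its annotated form (1146). The other leading forms were miR-375-3p at -1 (2794 ± 143.2 RPMMM) and +1 (796 ± 50.9), miR-200c-3p at -1 (1569 ± 115), miR-7a-5p at +1 (1461 ± 79.8) and -1 (746 ± 70.2), let-7c-5p at +1 (846 ± 107) and miR-29a-3p at -1 (741 ± 85.4). Although it is a small share of its microRNA, the -1 form of miR-375-3p alone exceeded miR-29a-3p (2165 RPMMM).

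In 16 forms of at least 10 RPMMM the shifted start exceeded the annotated one. Beside miR-140-3p and miR-101a-3p, the most abundant were miR-582-3p at -1 (213 RPMMM), miR-141-5p at +2 (200 RPMMM, 4.07 times), miR-582-5p at -1 (161 RPMMM, 3.80 times), miR-455-3p at -2 (97.7 RPMMM), miR-425-3p at -1 (43.5 RPMMM, 7.92 times), miR-331-5p at +1 (42.5 RPMMM), miR-505-3p at -1 (41.1 RPMMM) and miR-873-5p at -1 (39.7 RPMMM, 3.01 times).

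**Figure D4:**
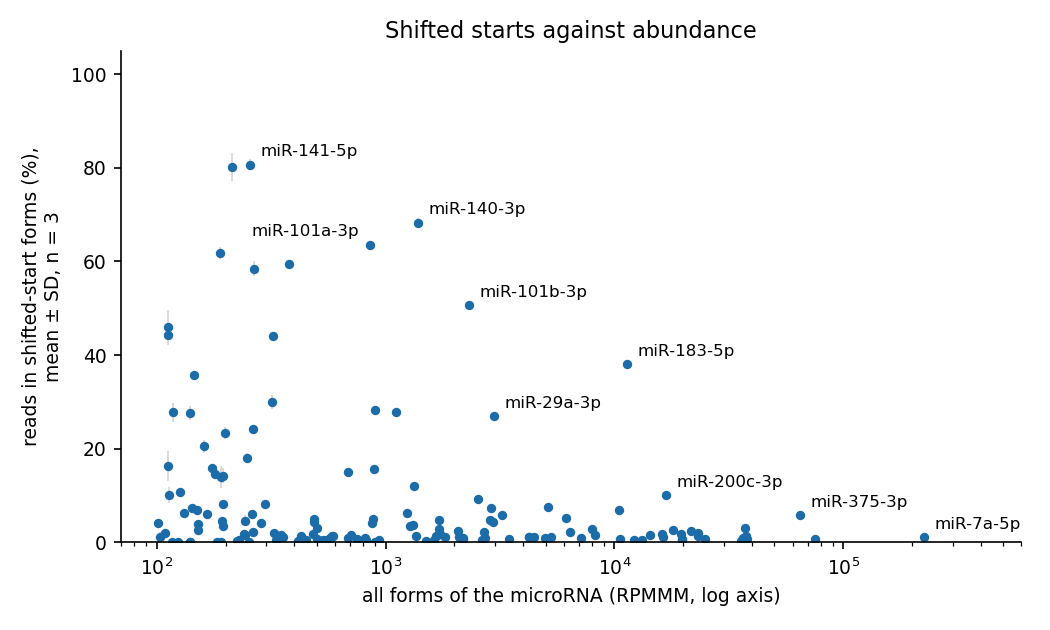
Share of reads in shifted-start forms (%) against the level of all forms (RPMMM, log axis) for the 147 microRNAs at 100 RPMMM or more. Points are means and lines the SD of 3 untreated libraries. The median is 2.30%, with 40 microRNAs under 1% and 34 at 10% or more, and miR-183-5p reaches 38.1% and miR-140-3p 68.3%.

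Of 198 shifted forms whose seed could be read, 22 had the annotated seed of another microRNA. The +1 forms of 8 let-7 family members have the seed AGGUAGU, which is that of miR-196. They are shown with miR-196a-5p because the let-7 seed is the most abundant one:

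let-7c-5p, start +1: gAGGUAGUagguuguaugguu
let-7f-5p, start +1: gAGGUAGUagauuguauaguu
miR-196a-5p: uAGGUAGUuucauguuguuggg

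The +1 forms of let-7c-5p, let-7f-5p, let-7d-5p and let-7g-5p had 846, 411, 284 and 236 RPMMM. The +1 form of miR-27b-3p (98.0 RPMMM) has the seed of miR-128-3p, and the -1 form of miR-128-3p (11.1 RPMMM) has that of miR-27. A shared seed is a match of letters and not a measured target.

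Sequence features differed between all members and the most abundant ones. Here the rows of copies were added before the limit was applied, so this set is not the one counted by seed. Of 227 microRNAs at 10 RPMMM or more with a sequence, 44.9% began with U, against 32.0% of the 466 other rat mature microRNAs in RefSeq. Those of the 227 that began with U held 82.1% of the reads of the 227. Among the 57 at 1000 RPMMM or more, 66.7% began with U. G as first base was found in 8.37% of the 227 and in 0.219% of their reads. The median length was 22 bases in each set.

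The 3 libraries were close. Between libraries 2 and 1, 15 of the 517 members differed by more than 1.5-fold, between 3 and 1 52, and between 3 and 2 6. More than 2-fold was seen for 5 members, all between 3 and 1. The median coefficient of variation (CV, SD over mean) fell from 11.8% for rows of 10 to 30 RPMMM to 5.35% for rows of 10000 RPMMM or more, where counting error alone gives a median of 0.266%. The steadiest rows of at least 100 RPMMM were miR-361-5p (CV 0.430%), miR-30a-3p (1.06%), let-7i-5p (1.08%), let-7g-5p at -1 (1.20%) and miR-378a-3p (1.28%). The most variable were miR-423-5p (27.9%), miR-328a-3p (27.1%), let-7d-3p (25.6%), miR-320-3p (25.6%) and miR-483-3p (25.4%). All 5 were lowest in library 1 and highest in library 3, as miR-423-5p was with 257, 325 and 446 RPMMM.

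These differences tended to move with base composition. Over the microRNAs at 100 RPMMM or more with a sequence, the log2 difference between library 3 and library 1 correlated with GC content at a Pearson r of 0.53 (Spearman rho 0.50). The points are microRNAs of the same 2 libraries and share their depth. They numbered 22, 59, 31 and 12 with under 40%, 40 to 50%, 50 to 60% and at least 60% GC. Of the 12 with at least 60% GC, 11 were higher in library 3, with a median log2 difference of 0.24. Of the 22 under 40% GC, 17 were lower in library 3, with a median of -0.25. Let-7a-5p, let-7c-5p, let-7d-5p, let-7e-5p and let-7b-5p went against this. They have 36.4% to 45.5% GC but were higher in library 3, by log2 0.30 to 0.48. The other microRNAs with the let-7 seed ran from -0.02 (let-7i-5p) to 0.14 (let-7g-5p). MiR-328a-3p and miR-320-3p have no sequence and are not among the points. The corresponding r was 0.49 for library 2 over 1 and 0.44 for library 3 over 2, while length gave 0.11 for library 3 over 1. The part of base composition in the spread was not tested further.

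**Figure D5:**
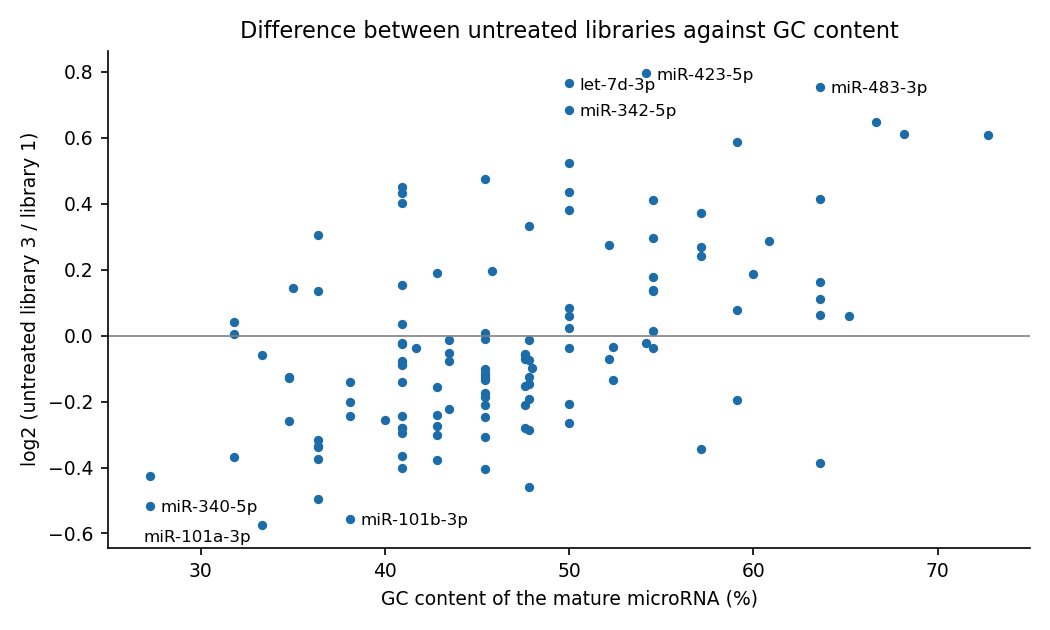
Log2 difference between untreated libraries 3 and 1 against the GC content (%) of the mature sequence, for the microRNAs at 100 RPMMM or more with a sequence. Each point is 1 microRNA. Points tend to rise from left to right, and miR-340-5p and the miR-101 pair are among the lowest while miR-423-5p is the highest. Several let-7 members lie high at low GC content.

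Host genes were measured in 4 other untreated libraries of polyadenylated RNA, in the authors' normalized counts, which are not per length and are not compared between genes. Mcm7, a helicase subunit whose gene holds miR-25, miR-93 and miR-106b, had 6603 ± 612 normalized counts (SD, n = 4), while the 3 microRNAs ranged from 4628 to 23188 RPMMM over all forms. Hnrnpk, which holds miR-7a-1, had 34081 ± 2352, and Trpm3, which holds miR-204, had 405 ± 52.6. Igf2, the host of miR-483, had 38653 ± 1425 normalized counts while miR-483 had 207 ± 49.8 RPMMM. Arpp21, the host of miR-128-2, was listed at 0 in 3 of the 4 libraries and at 0.809 in the other, although the miR-128-2 rows held 1019 ± 29.4 RPMMM. Its copy miR-128-1, in R3hdm1 (5760 ± 302.3 normalized counts), had 1170 ± 28.3 RPMMM, and both copies share the 3p sequence. RefSeq places these hairpins inside the named genes on the same strand.

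The limit of 10 RPMMM was worth about 63.2, 75.1 and 70.8 reads, and the smallest value above 0 about 10 reads. The last members were miR-92b-3p at +1 (10.7 RPMMM), miR-20b-5p at +1 (10.6), miR-24-1-5p at -1 (10.6), miR-1843a-3p (10.5) and miR-7b (10.1). Just outside lay miR-182 at +7 (9.97), miR-30c-2-5p at -1 (9.89), miR-672-5p at +1 (9.87), miR-487b-3p (9.87) and let-7i-5p at +6 (9.86). No member was at 0 in any library, and 491 of the 517 were at 10 RPMMM or more in each.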

How the data were processed

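Small RNA was sequenced in 12 libraries made with a TriLink CleanTag kit, of which the 3 untreated ones are described. The deposited RPMMM values are a form of RPM that the authors scaled to 1000000 microRNA reads per library, as the column sums show, and the table's name credits miRquant. The mRNA values used for host genes are a signal, deposited by the authors as DESeq2-normalized counts. The build rn6 and the tools STAR, Salmon and DESeq2 come from the submitters' processing notes, without versions. From the spacing of low values, the 3 libraries held about 6320000, 7510000 and 7080000 microRNA reads.

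Means, SDs and shares were computed with pandas 2.3.3 and numpy 2.4.6 in Python 3.11.15. No difference between groups was tested. Members needed a 3-library mean of 10 RPMMM. Sequences were matched by name. Named microRNAs were the 20 most abundant, 3 per list with defining markers, 6 per arm class, the 10 leading shifted forms and those above their annotated form, 5 on each side of the limit, and 5 with the largest and smallest CV from 100 RPMMM. Further family and cluster members, the host genes and the less abundant arms were added. Members and lists were chosen with earlier results of these data known. Alternatives covered the limit, scaling, identical rows, copies, forms and each library.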

Additional observations from a re-analysis of the deposited data

How the results depend on the processing

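No paired analysis was possible because only 1 group is described and no result comes from a test. Of 43 alternative values, 30 stayed within the spread between libraries, or within 1.5 times for the count of rows, and 13 moved. The 30 are not a measure of robustness. Leaving out 1 library can hardly move a share of reads by more than the SD between libraries. Both seed shares without a filter on low rows equalled the main values. The count of 517 rows became 196 at a limit of 100 RPMMM and 1083 with any value above 0, and ran from 514 to 526 when 1 library was left out. The share of the first 10 rows, 51.6%, was 52.4% with identical rows counted once, 52.5% with shifted forms added to their annotated form, 58.8% with precursor copies added and 53.0% with the highest row of each mature form kept, and ran from 51.3% to 52.2% without 1 library. Keeping the highest row also took the let-7 seed from 26.2% to 24.3% and the miR-7 seed from 22.3% to 14.5%. Without 1 library these ran from 25.4% to 27.2% and from 21.9% to 23.0%. The percentage of precursors with the 5p arm higher, 67.5%, was 65.4% with unshifted forms, 64.5% with both arms at 100 RPMMM or more and 65.4% with copies added, and ran from 67.1% to 68.7% without 1 library. The share in shifted forms, 2.89%, was 3.04% without a filter and 2.91% with identical rows counted once, and ran from 2.87% to 2.91% without 1 library. The alternatives on precursor copies were chosen after the data were seen. At 10 RPMMM counting error gives a CV of 11.5% to 12.6%, so order among the lowest members is not resolved.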
